A study of Mus musculus with 24 samples.

Results

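The expression of 7 genes of inhibitory neurons was described in the brains of 24 mice. The genes were Gad1, Gad2, Slc32a1, Pvalb, Lhx6, Calb2 and Reln, picked by name from the 54532 genes of the table, and all 7 were found once each. The rule that picks them uses names and no measured value, and it was set with earlier results of these data known. Adult male C57Bl6 mice, all wild type, carried an osmotic minipump for 2 weeks that delivered saline or angiotensin II at 0.7 mg/kg/day, a peptide hormone that raises blood pressure. After the pump was implanted, mice were injected through the tail vein with saline or with amnion epithelial cells (AECs), human cells from the placenta. This gave 4 groups of 6 mice, which were vehicle, angiotensin II, vehicle + AEC and angiotensin II + AEC. Poly-A RNA of brain hemispheres was sequenced, so each value averages over all cell types and regions of the sample, and the injected cells are of another species than the host.

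Gamma-aminobutyric acid (GABA) is the main inhibitory transmitter of the adult brain. It is made from glutamate by the glutamate decarboxylases GAD67 (Gad1) and GAD65 (Gad2) and loaded into synaptic vesicles by the vesicular transporter VGAT (Slc32a1). GAD67 is found throughout the neuron and supplies most basal GABA, whereas GAD65 is concentrated at nerve terminals. Interneurons of the cortex and hippocampus fall into classes. Lhx6, a LIM homeobox transcription factor, specifies those born in the medial ganglionic eminence, which include the fast-spiking cells that hold the calcium buffer parvalbumin (Pvalb). Calretinin (Calb2) and the secreted glycoprotein reelin (Reln) mark other interneurons. Several of these genes are also used elsewhere, since Pvalb is strongly expressed in Purkinje cells of the cerebellum, Calb2 and Reln in cerebellar granule cells, and Gad1, Gad2 and Slc32a1 in striatal projection neurons.

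Expression was given as FPKM, fragments on a gene for each kilobase of its length, scaled by the fragments of the library. The depth was 16536449 to 25308700 fragments per mouse. Brain markers were present in every mouse, with a median of 294.3 FPKM for the neuronal gene Snap25 and 480.1 FPKM for the myelin gene Mbp, and markers of the cerebellum were present too (Gabra6, median 26.0 FPKM). The libraries formed 2 sets by their total FPKM over all genes, 18 with 277116 to 298301 and 6 with 338334 to 348597. Vehicle and angiotensin II + AEC had 2 of the 6 libraries each, and angiotensin II and vehicle + AEC had 1 each. All of the 6 were replicate 5 or 6 of their group. The labels name no such sets, and the values of the 7 genes are therefore given for all mice and for the 18 libraries.

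Fragments per mouse ran from 230 to 467 for Lhx6 and from 815 to 1664 for Reln, and from 1891 (Gad2) to 8763 (Gad1) for the other genes. On GRCm38, Gad1 (ENSMUSG00000070880) lies on the plus strand at chr2:70553072-70602014, Gad2 (ENSMUSG00000026787) on the plus strand at chr2:22622205-22693874, Slc32a1 (ENSMUSG00000037771) on the plus strand at chr2:158610767-158615748, and Lhx6 (ENSMUSG00000026890) on the minus strand at chr2:36081953-36105408. Pvalb (ENSMUSG00000005716) lies on the minus strand at chr15:78191114-78206400, Calb2 (ENSMUSG00000003657) on the minus strand at chr8:110137502-110168210, and Reln (ENSMUSG00000042453) on the minus strand at chr5:21884454-22344702. The antisense gene Gad1os overlaps Gad1 at a mean of 0.185 FPKM, and Gm16111 overlaps Reln at 0.925 FPKM. Whether strand was used in counting is not given in the sources used here, so fragments from these overlaps cannot be assigned with certainty.

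The parvalbumin gene had the highest level per length and reelin the lowest. In the 18 libraries the median was 173.3 FPKM for Pvalb, 74.9 FPKM for Calb2, 54.8 FPKM for Slc32a1, 48.7 FPKM for Gad1, 34.1 FPKM for Gad2, 3.51 FPKM for Lhx6 and 3.16 FPKM for Reln. The order of the medians was the same in the 6 libraries. Each of the first 5 genes was above the next in 24 of 24 mice. Lhx6 was above Reln in 20 of 24 mice. Their ranges overlapped in the 18 libraries but not in the 6 (2.87 to 3.81 FPKM for Lhx6, 1.91 to 2.19 FPKM for Reln). The order of these neighbours was not tested. The order depends on the length used. The table divides by all exons of a gene joined (7639 bases for Gad1 and 23738 for Reln), but the longest principal transcript in GENCODE M21 has 3355 and 11699 bases. Per length of such a transcript, Gad1 came to 110.9 FPKM, above Calb2 (91.3 FPKM) and Slc32a1 (54.8 FPKM), and Reln came to 6.41 FPKM, above Lhx6 (5.04 FPKM).

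The widest differences in these genes lay between the sets of libraries. They were opposite for the genes of the GABA pathway, where both decarboxylases were lower in the 6 libraries and the transporter was higher. Gad2 ranged from 18.03 to 20.1 FPKM in the 6 libraries and from 31.1 to 36.8 FPKM in the 18, a ratio of 0.552. Gad1 ranged from 32.9 to 36.1 FPKM against 44.8 to 51.5 FPKM, a ratio of 0.713. Slc32a1 ranged from 64.3 to 75.6 FPKM against 51.5 to 59.8 FPKM, a ratio of 1.28. These 3 genes share no value between the sets. Among the class markers, Pvalb was higher in the 6 libraries (250.7 to 316.8 FPKM against 146.1 to 204.2 FPKM, a ratio of 1.58). Calb2 was higher as well (101.8 to 117.0 FPKM against 66.7 to 83.3 FPKM, a ratio of 1.47). Reln was lower (1.91 to 2.19 FPKM against 2.88 to 3.56 FPKM, a ratio of 0.653). For Lhx6 the sets overlapped (2.87 to 3.81 FPKM against 3.04 to 4.17 FPKM, a ratio of 0.899). The sets did not overlap for 6 of the 7 genes. The same held for 6957 of the 13649 genes with a mean of at least 1 FPKM (51.0%), and these values are a description without a test.

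**Figure D1:**
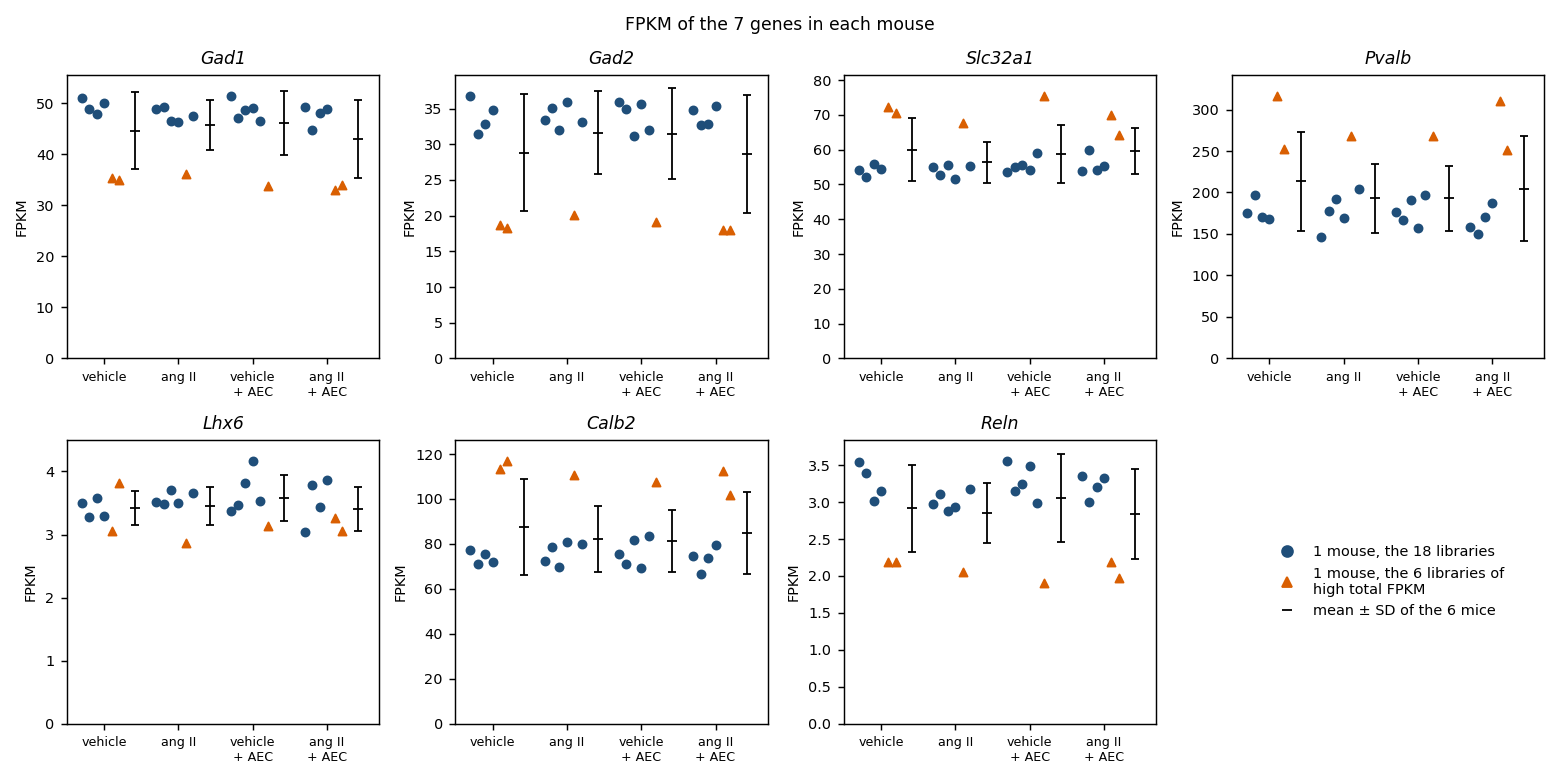
FPKM of the 7 genes (vertical axes, from 0) in each mouse of the 4 groups (horizontal axes), with circles for the 18 libraries, triangles for the 6 libraries of high total FPKM, and the mean ± SD of the 6 mice beside each group. The triangles lie below all circles for Gad1, Gad2 and Reln, above all circles for Slc32a1, Pvalb and Calb2, and among them for Lhx6.

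The direction followed gene length. Pvalb, Calb2 and Slc32a1 are the shortest of the 7 genes in the table (1041, 1743 and 2797 bases), and Lhx6 (4805), Gad2 (5876), Gad1 (7639) and Reln (23738) are longer. Over the 13649 genes the median difference, 6 libraries minus 18, was 0.43 on the log2 scale in the shortest of 10 equal bins of gene length and -0.53 in the longest, and Spearman's rho across genes with length was -0.522. Genes are not independent replicates, and no p is given. Reln had a difference of -0.59, near the median of -0.53 of its bin. Calb2 (0.56, with a median of 0.46), Gad1 (-0.49, with -0.42) and Lhx6 (-0.15, with -0.16) were near theirs too. Pvalb (0.66, with 0.43) and Slc32a1 (0.35, with 0.17) lay above theirs, and Gad2 (-0.85, with -0.28) lay furthest below. Genes of the mitochondrial genome took between 6.17% and 6.85% of the fragments of each of the 6 libraries, and between 4.79% and 5.75% in the 18. The part of length or of mitochondrial RNA in the difference was not tested.

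**Figure D2:**
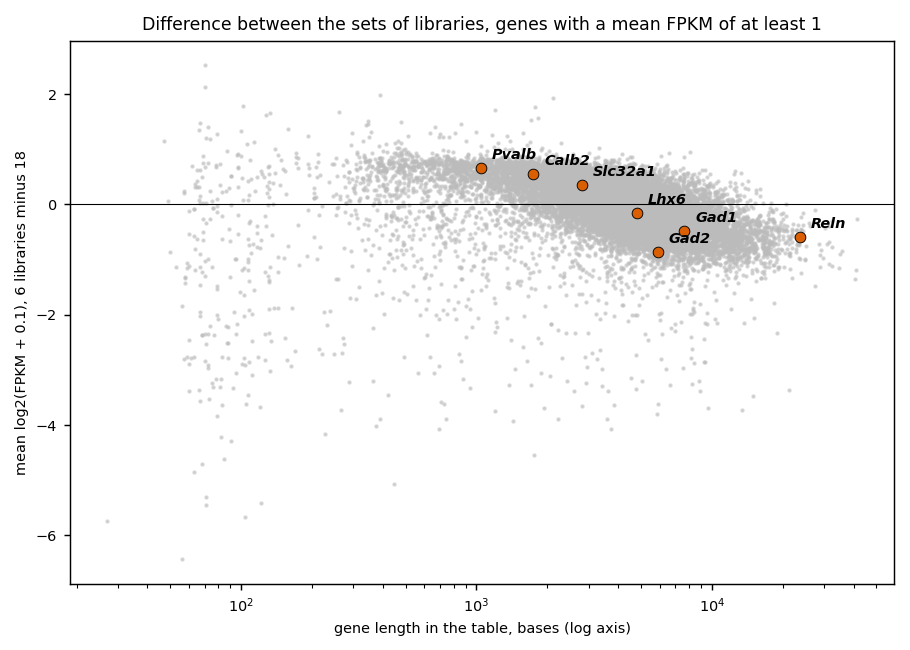
Difference between the sets of libraries in mean log2(FPKM + 0.1) (vertical axis, 6 libraries minus 18) against gene length in bases (horizontal log axis) for the 13649 genes with a mean of at least 1 FPKM (grey) and the 7 genes (orange). Pvalb, Calb2 and Slc32a1 lie above 0 at the short end, and Gad1, Gad2, Lhx6 and Reln lie below 0 at greater lengths.

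Both decarboxylase genes were lower in the 6 libraries, but not equally. The ratio of Gad1 to Gad2, in FPKM within a mouse, was 1.29 to 1.56 with a median of 1.43 in the 18 libraries, and 1.77 to 1.91 with a median of 1.85 in the 6. The ratio did not differ in this way between treatments. In the 18 libraries its median was 1.45 with vehicle, 1.44 with angiotensin II, 1.43 with vehicle + AEC and 1.40 with angiotensin II + AEC.

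Within the 18 libraries the genes were steady from mouse to mouse. Around the group means the coefficient of variation of FPKM was 3.54% for Gad1, 3.80% for Slc32a1, 5.67% for Gad2, 6.07% for Reln, 6.75% for Calb2, 7.35% for Lhx6 and 10.1% for Pvalb. Over all 24 libraries it was 12.9% to 25.9% for 6 of the genes and 9.37% for Lhx6. Counting error alone would give 1.18% for Gad1 and 1.69% for Pvalb. For Lhx6 it would give 5.52%, the highest of the 7, so that less of the spread of this gene lies beyond counting. Pvalb, with deep counts, had the widest spread.

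**Figure D3:**
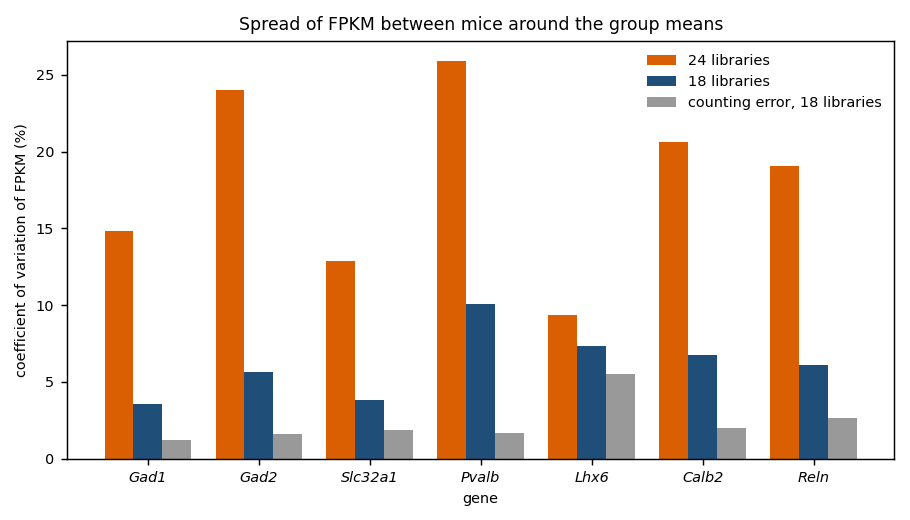
Coefficient of variation of FPKM (vertical axis, percent, from 0) around the group means for each gene (horizontal axis), over all 24 libraries, over the 18 libraries, and as counting error alone. The 24-library bars exceed the 18-library bars for all 7 genes, and Lhx6 has the highest counting error (5.52%).

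Treatments were compared with limma on log2(FPKM + 0.1) over 27286 genes, with Benjamini-Hochberg adjustment. None of the 7 genes passed an adjusted p of 0.05 in any comparison, and neither did any other gene (percent called 0 in each). Nor did any of the 7 have an unadjusted p under 0.05 when the 4 groups alone were fitted. Of all genes tested, 604 (2.21%) had one for angiotensin II against vehicle, 694 (2.54%) for angiotensin II + AEC against angiotensin II, 658 (2.41%) for vehicle + AEC against vehicle and 692 (2.54%) for the interaction, the difference between the effects of angiotensin II with and without AEC. No gene of the 7 had groups that did not overlap, which held for 17 (0.0623%), 27 (0.099%) and 17 (0.0623%) of all genes in the first 3 comparisons. Exact permutation tests of 6 mice against 6 gave two-sided p from 0.333 to 0.965 over these 21 differences, where 0.00216 is the smallest possible. The comparisons share groups of mice. In bulk RNA, fewer cells of a type and less RNA per cell cannot be told apart.

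The precision of these comparisons rested on the sets of libraries. In the fit of the 4 groups the standard error of a difference (log2) was 0.13 for Gad1, 0.22 for Gad2 and 0.19 for Pvalb. With the set of libraries as a further term it was 0.030, 0.043 and 0.082. That fit had 944 genes (3.46%), 1063 (3.9%), 966 (3.54%) and 931 (3.41%) at an unadjusted p under 0.05 in the 4 comparisons, in the same order, and 1 of the 7 genes, Reln, in the first. Within the 18 libraries alone, 1053 genes (3.86%), 1259 (4.61%), 1140 (4.18%) and 1146 (4.2%) had one, and none of the 7.

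**Figure D4:**
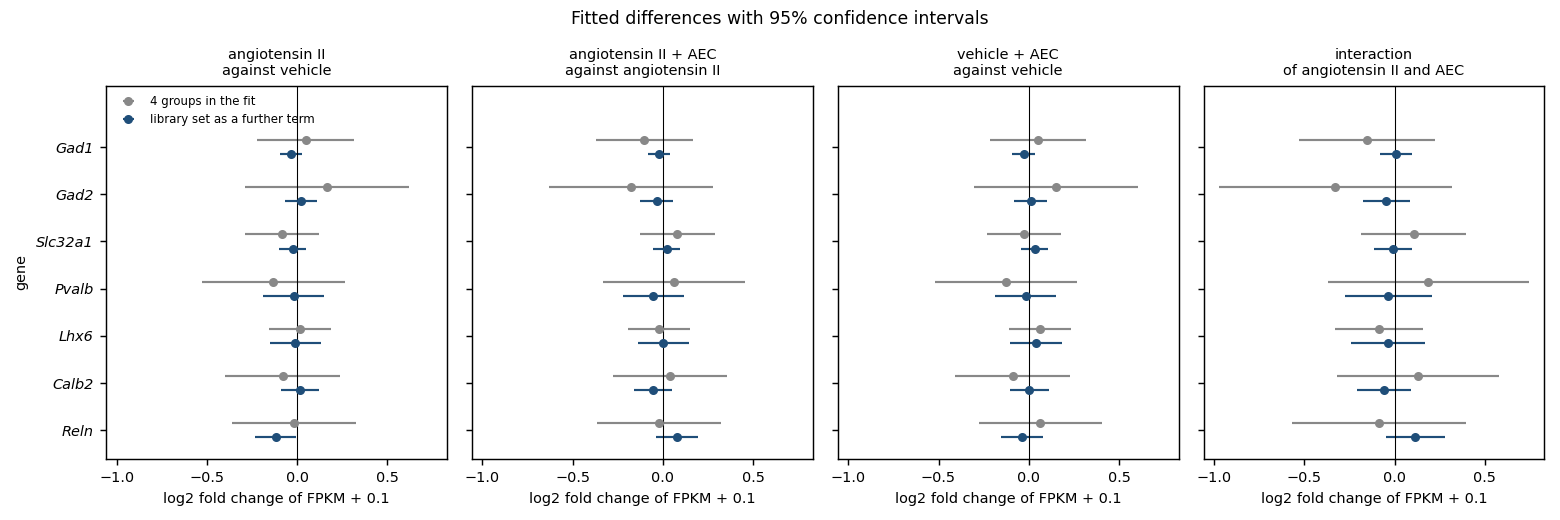
Fitted log2 fold change of FPKM + 0.1 (horizontal axes) with its 95% confidence interval for each gene (vertical axis) in the 4 comparisons, from the fit of the 4 groups (grey) and with the set of libraries as a further term (blue). Every grey interval spans 0, and of the blue ones only that of Reln for angiotensin II against vehicle does not (-0.233 to -0.00366 on the log2 scale).

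Gad1, which encodes the decarboxylase of basal GABA synthesis, had group medians within 46.4 to 48.3 FPKM. Its lowest, median and highest values were 34.8, 48.3 and 50.9 FPKM with vehicle. With angiotensin II they were 36.1, 47.0 and 49.3 FPKM. With vehicle + AEC they were 33.8, 47.8 and 51.5 FPKM, and with angiotensin II + AEC 32.9, 46.4 and 49.3 FPKM. Over all 24 libraries the groups overlap over nearly their whole range, and the low end of each is a library of the 6. In the 18 libraries Gad1 ranged from 46.3 to 49.3 FPKM with angiotensin II and from 47.8 to 50.9 FPKM with vehicle. All 5 of these angiotensin II mice were below the vehicle mean (exact permutation test, two-sided p = 0.111, where 0.0159 is the smallest possible). Fitted with the set as a term, Gad1 differed by -2.33% between angiotensin II and vehicle (95% confidence interval -6.44% to 1.97%). The change was -1.46% when AECs were added to angiotensin II (-5.61% to 2.87%) and -1.97% when they were given to vehicle mice (-6.10% to 2.34%). Of the 7 genes Gad1 had the narrowest intervals.

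Gad2, the decarboxylase of nerve terminals, had 18.3, 32.1 and 36.8 FPKM as its lowest, median and highest values with vehicle. It had 20.1, 33.3 and 36.0 FPKM with angiotensin II. With vehicle + AEC it had 19.1, 33.5 and 35.9 FPKM, and with angiotensin II + AEC 18.03, 32.8 and 35.4 FPKM. In the fit of the 4 groups its difference between angiotensin II and vehicle was 12.1% with an interval from -18.3% to 53.6%. Once the set was a term, the same difference was 1.59% (-4.54% to 8.12%). AECs added to angiotensin II gave -2.38% (-8.27% to 3.89%), and AECs in vehicle mice gave 0.730% (-5.35% to 7.20%). The first value was the largest of the 7 genes, and vehicle held 2 of the 6 libraries where angiotensin II held 1.

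Slc32a1, the vesicular transporter, had the lowest spread after Gad1 in the 18 libraries. Its lowest, median and highest values were 52.2, 55.1 and 72.4 FPKM with vehicle. They were 51.5, 55.3 and 67.6 FPKM with angiotensin II, 53.5, 55.3 and 75.6 FPKM with vehicle + AEC and 54.0, 57.6 and 70.1 FPKM with angiotensin II + AEC. The groups overlap, with the libraries of the 6 at the top of each. Its differences with the set as a term were -1.68% for angiotensin II against vehicle (-6.58% to 3.49%), 1.48% for AECs added to angiotensin II (-3.58% to 6.81%) and 2.29% for AECs in vehicle mice (-2.81% to 7.66%).

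Pvalb, the calcium buffer of fast-spiking interneurons and Purkinje cells, had the widest spread. Its lowest, median and highest values were 168.3, 186.2 and 316.8 FPKM with vehicle. They were 146.1, 184.9 and 268.3 FPKM with angiotensin II, 156.7, 184.2 and 267.8 FPKM with vehicle + AEC and 150.0, 178.9 and 310.3 FPKM with angiotensin II + AEC. The groups overlap. In the 18 libraries the mean was 177.9 ± 12.9 FPKM with vehicle (SD, n = 4) and 177.9 ± 22.2 FPKM with angiotensin II (SD, n = 5). It was 177.7 ± 16.6 FPKM with vehicle + AEC (SD, n = 5) and 166.6 ± 16.1 FPKM with angiotensin II + AEC (SD, n = 4). Its 3 differences with the set as a term were -1.35% (-12.3% to 10.95%), -3.56% (-14.2% to 8.46%) and -1.20% (-12.1% to 11.1%), in the order used above.

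Lhx6, the transcription factor of interneurons from the medial ganglionic eminence, was low in every mouse. Its lowest, median and highest values were 3.05, 3.39 and 3.81 FPKM with vehicle. They were 2.87, 3.51 and 3.71 FPKM with angiotensin II, 3.13, 3.500 and 4.17 FPKM with vehicle + AEC and 3.04, 3.35 and 3.86 FPKM with angiotensin II + AEC. The highest mouse of all was given vehicle + AEC, and the groups overlap. In the 18 libraries all 5 angiotensin II mice were above the vehicle mean, but the difference was within the spread (exact permutation test, two-sided p = 0.127, where 0.0159 is the smallest possible). Those with the set as a term were -0.694% (-10.0% to 9.60%), 0.190% (-9.22% to 10.6%) and 2.79% (-6.86% to 13.4%).

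Calb2, or calretinin, had 71.2, 76.2 and 117.0 FPKM as its lowest, median and highest values with vehicle and 69.5, 79.2 and 110.7 FPKM with angiotensin II. With vehicle + AEC it had 69.3, 78.4 and 107.4 FPKM, and with angiotensin II + AEC 66.7, 77.1 and 112.5 FPKM. The groups overlap, and the libraries of the 6 are again highest. With the set as a term the differences were 1.02% for angiotensin II against vehicle (-6.16% to 8.75%), -3.69% for AECs added to angiotensin II (-10.5% to 3.68%) and 0.271% for AECs in vehicle mice (-6.85% to 7.94%).

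Reln, the extracellular guide of neuronal positioning that adult interneurons go on secreting, had the one difference below an unadjusted p of 0.05, and it did not pass adjustment. In the 18 libraries its mean was 3.27 ± 0.235 FPKM with vehicle (SD, n = 4) and 3.01 ± 0.123 FPKM with angiotensin II (SD, n = 5). It was 3.28 ± 0.236 FPKM with vehicle + AEC (SD, n = 5) and 3.22 ± 0.160 FPKM with angiotensin II + AEC (SD, n = 4). All 5 angiotensin II mice were below the vehicle mean, yet the groups overlap, from 2.88 to 3.17 FPKM against 3.02 to 3.54 FPKM. Over all 24 libraries the lowest, median and highest values were 2.19, 3.08 and 3.54 FPKM with vehicle and 2.06, 2.95 and 3.17 FPKM with angiotensin II. They were 1.91, 3.19 and 3.56 FPKM with vehicle + AEC and 1.97, 3.10 and 3.35 FPKM with angiotensin II + AEC. The difference between angiotensin II and vehicle in the fit of the 4 groups was -0.02 on the log2 scale (standard error 0.17).

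With the set as a term, Reln differed by -0.12 between angiotensin II and vehicle (standard error 0.055), which is -7.86% with an interval from -14.9% to -0.253%. The unadjusted p was 0.0437 and the adjusted p was 1. In the 18 libraries the difference was -0.11 (unadjusted p = 0.0889), with a two-sided p of 0.0794 by exact permutation. Adding AECs to angiotensin II gave 5.61% (-2.44% to 14.3%) with the set as a term and an exact permutation p of 0.0635 in the 18 libraries. AECs in vehicle mice gave -2.51% (-9.94% to 5.54%). The difference between angiotensin II and vehicle lay between -0.15 and -0.10 (log2) with each mouse left out in turn. Its unadjusted p stayed under 0.05 in 5 of 12 such fits, with the lowest (0.0172) without vehicle replicate 3. It rose to 0.110 without vehicle replicate 1, 0.0788 without vehicle replicate 2, 0.0693 without vehicle replicate 5 and 0.0692 without vehicle replicate 6. It also rose without angiotensin II replicate 1 (0.0710), replicate 3 (0.0889) and replicate 4 (0.0769).

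The interaction of angiotensin II and AEC was not detectable for any of the 7 genes. In the fit of the 4 groups it ranged from -0.33 for Gad2 (standard error 0.31) to 0.19 for Pvalb (standard error 0.27) on the log2 scale. With the set as a term it ranged from -0.06 for Calb2 to 0.12 for Reln, and the unadjusted p was lowest for Reln (0.157).

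Genes that act with the 7 members were looked at in 15 lists, which held 108 further genes, all tested. The first list held genes of GABA uptake and breakdown, such as Slc6a11, Abat and Aldh5a1. Others held transcription factors of interneurons, other subtype markers, fast-spiking and perineuronal net genes, and the reelin pathway, and 10 held markers of regions and other cell types. None of the 108 passed adjustment. In the fit of the 4 groups, 0, 0 and 1 of them had an unadjusted p under 0.05 in the first 3 comparisons, against the 2.21%, 2.54% and 2.41% of all genes given above. The 1 was Trp73, a marker of Cajal-Retzius cells, for vehicle + AEC against vehicle (0.28, standard error 0.12, adjusted p = 0.995). With the set as a term the numbers were 0, 1 and 2 of 108, beside 3.46%, 3.9% and 3.54% of all genes, so the lists held no more such genes than the table as a whole. They were the dopamine receptor gene Drd2 (-0.19) for AECs added to angiotensin II, and Trp73 (0.25) and the hypothalamic peptide gene Agrp (-0.54) for AECs in vehicle mice. Trp73 (0.410 to 0.746 FPKM over all mice) and Agrp (0.280 to 1.75 FPKM) had low levels. The shares of all genes include low genes. With the fit of the 4 groups limited to the 13649 genes with a mean of at least 1 FPKM, 93, 119 and 105 genes had an unadjusted p under 0.05. Such a share was not computed with the set as a term.

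The medians of the 15 lists lay on both sides of that of all genes, and their distance from it was not tested. In the fit of the 4 groups the median log2 fold change of a list ran from -0.10 (Purkinje cells) to 0.11 (GABA uptake and breakdown) for angiotensin II against vehicle, where that of all genes was 0.02. It ran from -0.12 (hypothalamus) to 0.05 (interneuron subtype markers) for AECs added to angiotensin II, where all genes had -0.02, and from -0.06 (striatal projection neurons) to 0.13 (thalamus) for AECs in vehicle mice, where all genes had 0.01. For the interaction it ran from -0.18 (reelin pathway) to 0.13 (cortical excitatory neurons), with -0.03 for all genes, and the genes of GABA uptake and breakdown also had -0.18. With the set as a term the interaction ran from -0.18 (hypothalamus) to 0.05 (olfactory bulb). The summed FPKM of the hypothalamus list reached 422.4 in the highest angiotensin II library, where the median of that group was 80.2. The peptide gene Pomc of this list reached 343.1 FPKM, with a median of 2.3 FPKM over all mice. The part of that library in the list medians was not tested.

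In the fit of the 18 libraries alone, 1, 5 and 3 of the 108 genes had an unadjusted p under 0.05 in the first 3 comparisons, beside 3.86%, 4.61% and 4.18% of all genes, and the lowest adjusted p among them was 0.998. The 1 for angiotensin II against vehicle was the neuregulin receptor gene Erbb4 (-0.20). The 5 for AECs added to angiotensin II were the reelin receptor gene Lrp8 (-0.16), the synaptotagmin gene Syt2 (-0.09), the homeobox gene Dlx1 (0.15), Drd2 (-0.21) and the astrocyte gene Gfap (-0.10). Those for AECs in vehicle mice were Dlx5, of the same family as Dlx1 (0.30), the olfactory bulb marker Tbx21 (0.77), which was at 0 in 2 mice, and Agrp (-0.61). For the interaction Agrp had 0.83.

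Pairs of the 7 genes were compared across mice within each set of libraries, since a pooled correlation would rest on the gap between the sets. Of the 21 pairs, 1 passed adjustment in the 18 libraries, namely Gad1 and Reln. Pearson's r was 0.764 (permutation p = 0.00028, adjusted p = 0.00588) and Spearman's rho was 0.717 (permutation p = 0.00119, adjusted p = 0.0250). Without the 2 mice furthest from the median of Gad1, r was 0.727. In the 6 libraries r was 0.133. The permutations did not keep mice within their treatment group. With the means of treatment and library set subtracted, r over the 24 mice was 0.688. On that scale 1% of the genes with a mean of at least 1 FPKM lay above 0.61 with Gad1, so such a value is not particular to this pair. Gad1 and Gad2 had an r of 0.477 in the 18 libraries (permutation p = 0.0442, adjusted p = 0.232), and Gad1 and Slc32a1 had -0.534 (permutation p = 0.0224, adjusted p = 0.157). Pvalb and Calb2 had 0.550 (permutation p = 0.0189, adjusted p = 0.157).

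**Figure D5:**
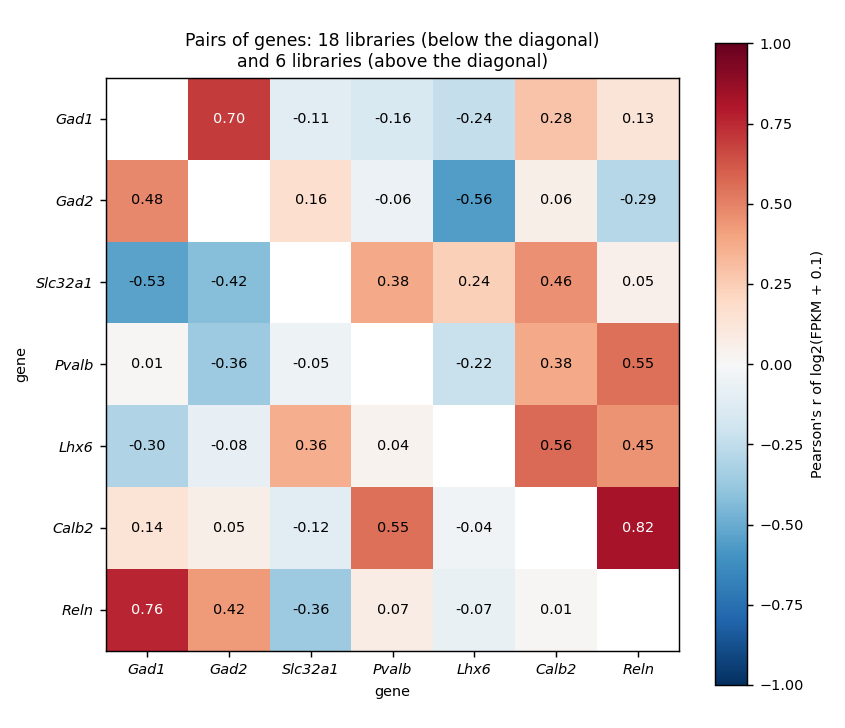
Pearson's r of log2(FPKM + 0.1) across mice for each pair of the 7 genes (both axes), within the 18 libraries below the diagonal and within the 6 libraries above it. The value for Gad1 and Reln is 0.76 below the diagonal and 0.13 above it, and values from only 6 libraries vary widely.

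The total FPKM of a library also varied within the 18, and 5 of the 7 genes followed it by Pearson's r after adjustment over the 7. The share of all genes that did so was not computed, so whether the count is particular to these genes is not known. The r was -0.563 for Gad1 (permutation p = 0.0149, adjusted p = 0.0434), -0.525 for Gad2 (permutation p = 0.0261, adjusted p = 0.0457) and -0.551 for Reln (permutation p = 0.0186, adjusted p = 0.0434). It was 0.503 for Slc32a1 (permutation p = 0.0335, adjusted p = 0.0469) and 0.572 for Pvalb (permutation p = 0.0141, adjusted p = 0.0434). The signs for these 5 genes were those of the difference between the sets. By Spearman's rho, Slc32a1 (0.602), Pvalb (0.593) and Lhx6 (0.577) passed adjustment (adjusted p = 0.0336 for each), the last against the sign of its difference between the sets (-0.15), and Gad1 (-0.480, adjusted p = 0.0789), Gad2 (-0.436, adjusted p = 0.0910) and Reln (-0.428, adjusted p = 0.0910) did not. Without the 2 libraries furthest from the median total, r was -0.430 for Gad1, -0.381 for Gad2, -0.379 for Reln, 0.319 for Slc32a1 and 0.444 for Pvalb. The part of total FPKM in the relation of Gad1 and Reln was not tested.

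Marker lists of brain regions were set against the 7 genes in the same way, as the mean log2 value of a list with any member under comparison left out. None of the 105 relations passed adjustment. The highest r with Pvalb was that of the Purkinje cell list (0.680 in the 18 libraries, permutation p = 0.00136, adjusted p = 0.127), followed by cerebellar granule cells (0.626, permutation p = 0.00362, adjusted p = 0.127). Without the 2 mice furthest from the median of the list they were 0.405 and 0.271. In the 6 libraries they were 0.905 and 0.917. Calb2 had 0.635 with the Cajal-Retzius list (permutation p = 0.00525, adjusted p = 0.127). Slc32a1 had -0.647 with the reelin pathway (permutation p = 0.0039, adjusted p = 0.127), -0.616 with cerebellar granule cells (permutation p = 0.00968, adjusted p = 0.127), -0.593 with the thalamus (permutation p = 0.00863, adjusted p = 0.127) and 0.535 with the striatal list (permutation p = 0.0228, adjusted p = 0.184). Gad2 had -0.598 with the striatal list (permutation p = 0.00866, adjusted p = 0.127). The r furthest from 0 for the remaining genes was 0.539 for Gad1 with cerebellar granule cells (permutation p = 0.0225, adjusted p = 0.184), -0.578 for Reln with the list of glia and endothelium (permutation p = 0.0110, adjusted p = 0.128) and -0.343 for Lhx6 with the Cajal-Retzius list (permutation p = 0.166, adjusted p = 0.497).

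The 3 genes most like each member were sought among the 13649 genes, by Pearson's r over the 24 mice after the means of treatment and library set were subtracted. For Pvalb they were Gng13 (0.870), Gm2694 (0.863) and Cbln1 (0.861), where 1% of all genes lay above 0.646. For Gad1 they were Cdk19 (0.807), Eif5 (0.778) and Cstf2 (0.773). Gad2 had 9330182L06Rik (0.853), Sec23a (0.849) and Pcdh17 (0.846), and Slc32a1 had Igsf8 (0.886), 2310011J03Rik (0.864) and Itm2c (0.864). For Lhx6 they were Gm23706 (0.823), Usp4 (0.732) and Mettl3 (0.723), and for Calb2 Krt25 (0.736), Tmtc4 (0.732) and Cul7 (0.701). Reln had Tns3 (0.786) and Wapl (0.778). The mice share library and depth across genes, and the highest of so many values are given as a description only. No member was among the 3 genes most like another.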

How the data were processed

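Brain RNA-seq of 24 mice was analysed, with groups and replicate numbers from the labels. The authors deposited FPKM values per gene and mouse with the gene length used; per the labels their processing used GRCm38 and DESeq 1.10.1. The aligner, counter and use of strand are not given in the sources used here. Lengths and coordinates of the 7 genes equal those of GENCODE M21, lengths as the union of exons. FPKM multiplied by length gave whole fragments for 100% of values (tolerance 0.1), from which depth and counting error were taken. The counting error covers counting only.

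Differences were tested with limma 3.58.1 in R 4.3.3 on log2(FPKM + 0.1), 4 groups in one fit, eBayes with trend, Benjamini-Hochberg adjustment, for the 27286 genes above 0 in at least 6 of 24 mice. Fold changes are on that scale, which understates changes of low genes. Single genes were tested with exact permutation tests of differences in mean log2 values, two-sided. Correlations used 100000 permutations, two-sided, adjusted within families of 21 pairs, 105 relations to lists and 7 relations to total FPKM. Replicates of a group were separate libraries that differed by more than sampling noise (chi-square per gene 3.19 to 96.1). The set of 6 libraries was split off at the widest gap in total FPKM. On simulated fragments for angiotensin II against vehicle (28515 genes), 39 of 67 genes changed 1.5-fold, 62 of 67 changed 2-fold and 66 of 66 changed 4-fold were called, with 9 false calls. The simulated libraries held no sets and the same added spread for every gene, so these rates do not carry over to the measured libraries.

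All 7 genes were named, with the 3 genes most like each, and list genes at an unadjusted p under 0.05. A few results of single genes named by these choices are left out. The members, lists, tests and the fits with the library set were chosen with earlier results of these data known, and correlations within the sets were added after the data were seen. Alternatives were pseudocounts of 1 and 0.01, other filters, scaling, voom, array weights, the replicate block, the compared groups alone, the library set and each mouse left out. Python 3.11.15 and matplotlib 3.10.9 were used for tables and plots.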

Additional observations from a re-analysis of the deposited data

Results flagged for a closer look

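Dixon's 95% limit for 6 values was applied to 28 groups of 6 mice (7 genes in 4 groups). In 10 of them 1 mouse lay further from the others than this limit allows. Chance gives about 1 in 20 for independent groups, but the same mice recur for each gene, so that rate does not apply here. The share of all genes flagged in this way was not computed. The sets of libraries did not overlap for 51.0% of the genes with a mean of at least 1 FPKM. All 10 flagged values were from the single library of the 6 with high total FPKM in its group. In the group given angiotensin II this was replicate 5, lowest for Gad1 (36.1 FPKM, gap 0.802 of the range), Gad2 (20.1 FPKM, gap 0.798), Lhx6 (2.87 FPKM, gap 0.755) and Reln (2.06 FPKM, gap 0.772). The same mouse was highest for Slc32a1 (67.6 FPKM, gap 0.719) and Calb2 (110.7 FPKM, gap 0.676). In the group given vehicle + AEC it was replicate 6, lowest for Gad1 (33.8 FPKM, gap 0.756), Gad2 (19.1 FPKM, gap 0.774) and Reln (1.91 FPKM, gap 0.719) and highest for Slc32a1 (75.6 FPKM, gap 0.715). The remaining groups hold 2 such libraries each, so neither stands alone there. Among the 18 libraries, 0 mice were past the limit for their group.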

How the results depend on the processing

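For the 28 differences of the 7 genes, none of the 357 estimates under other settings and none of the 420 with a mouse left out passed adjustment. Of these, 75 and 30 had the other sign. All moved from the fit of the 4 groups by less than the SD between mice in that fit. That SD holds the gap between the sets of libraries, so the limit is wide and does not show that the estimates are stable. For angiotensin II against vehicle, 1 of the 7 genes (Reln) had an unadjusted p under 0.05 with the library set as a term, also with median ratio scaling (1) or with voom (1) added, against 0 in the fit of the 4 groups. The last 2 fits and leaving out a mouse with the set as a term were chosen after seeing the data. For the interaction, array weights gave 1 gene with an adjusted p under 0.05, against 0, which is Tnni3k (adjusted p = 0.0154), named after its value was seen. In all other settings 0 genes passed. The number with an unadjusted p under 0.05 ranged from 93 (only genes with a mean of at least 1 FPKM) to 1254 (array weights) around 604 for angiotensin II against vehicle. By the same settings it ranged from 119 to 1282 around 694 for AECs added to angiotensin II and from 105 to 1331 around 658 for AECs in vehicle mice, and for the interaction from 118 to 1416 (replicate block) around 692. Without vehicle + AEC replicate 6 the numbers for AECs in vehicle mice and for the interaction were 1188 and 1244. The labels give the replicate number no meaning, but the 6 libraries of high total FPKM were all replicate 5 or 6 of their group. Correlations of deviations between mice with the same number ran from -0.224 to 0.797. Those of 0.753, 0.774 and 0.797 were the pairs with both libraries among the 6. With the replicate block 950, 993, 1036 and 1416 genes had an unadjusted p under 0.05, none of the 7 among them. The cause of these shifts was not tested. Depth limits Lhx6 most.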

Other observations

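Other genes of the same neurons differed between the sets of libraries in both directions, given here as medians without a test. The peptide genes Sst (233.2 FPKM in the 18 libraries, 371.9 FPKM in the 6), Cck (169.3 and 288.2 FPKM) and Npy (70.9 and 114.1 FPKM) were higher in the 6. So was the GABA transporter gene Slc6a11 (66.1 and 84.6 FPKM), which is mainly astrocytic. The GABA transaminase gene Abat (46.6 and 27.6 FPKM) and Aldh5a1 (16.7 and 9.56 FPKM), which acts in the next step of GABA breakdown, were lower. Vip differed little (5.92 and 5.47 FPKM). The reelin receptor genes Vldlr (7.83 and 4.54 FPKM) and Lrp8 (7.90 and 3.86 FPKM) were lower, as was Reln. Fyn (28.9 and 28.3 FPKM) and Rapgef1 (18.7 and 16.9 FPKM) of the reelin pathway list differed less. Such differences are common, since the sets did not overlap for 51.0% of the genes with a mean of at least 1 FPKM.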
